A study of Mus musculus with 12 samples.

Results

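The fatty acid elongases are the 7 genes Elovl1 to Elovl7, chosen by their symbols alone from the 24344 genes of an expression table of mouse inguinal fat, a white depot under the skin of the groin. RNA came from 12 mice, all C57BL/6J, 3 in each of 4 groups. Mice of group AKO_8C and of group WT_8C were held at 8 °C for the last 3 days, and mice of groups AKO_30C and WT_30C stayed at 30 °C. Before that every mouse had been kept 4 weeks at room temperature, followed by 6 weeks at 30 °C, which is thermoneutral for mice. The age given is 10 weeks. The AKO mice carry the genotype IRE1(alpha)-/- in the labels and the others WT, while the series title names the fat of Ern1f/f AKO mice beside that of Ern1f/f mice, the floxed line. Ern1 encodes IRE1alpha, a stress sensor of the endoplasmic reticulum. The sex of the mice, the meaning of AKO and the Cre driver are not given in the sources used here.

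Elongases sit in the membrane of the endoplasmic reticulum and lengthen fatty acids by a pair of carbon atoms in each round, using malonyl-CoA. They carry out the condensation that opens each round and limits its rate, and a ketoacyl reductase, a dehydratase and an enoyl reductase complete it. Family members differ in the acids they accept: ELOVL1, ELOVL3, ELOVL6 and ELOVL7 act mainly on saturated and monounsaturated acids, ELOVL2 and ELOVL5 on polyunsaturated acids, and ELOVL4 makes the longest chains of retina, brain and skin. In fat, Elovl3 is known from brown adipose tissue, where cold induces it, and Elovl6 from the synthesis of new fatty acids, where it turns palmitate into stearate.

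Expression was deposited as FPKM, fragments scaled by transcript length and by library, so levels of different genes can be set side by side, but the number of reads behind a value is unknown. Differences below are differences of mean log2(FPKM + 1), which understates the change of low genes, with limma's standard error (SE), its 95% interval and a Benjamini-Hochberg adjusted p over the 13215 genes that reached 1 FPKM in at least 3 libraries. A gene was called changed when that p was under 0.05. Of the elongases 5 were tested, and Elovl2 and Elovl4 were not, since neither reached 1 FPKM in any library. Elovl3 reached it in 6 of 12 libraries, all of them at 8 °C, so it passed the filter only through the groups in which it was high.

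Ern1 itself ran against the genotype label at the level of the whole gene. It stood at 6.83 to 7.37 FPKM in AKO_8C and 4.53 to 5.20 FPKM in WT_8C, and at 3.45 to 4.50 FPKM in AKO_30C and 2.53 to 3.32 FPKM in WT_30C, higher in every library labelled AKO than in any WT library of the same temperature. The differences were 0.43 at 8 °C and 0.36 at 30 °C, with limma adjusted p of 0.0756 and 0.193. A gene-level value cannot show the loss of an exon, so this check does not settle the genotype, and the groups are called the libraries labelled AKO and the WT libraries throughout. Adipocyte markers (8 genes, Adipoq and Plin1 among them) summed to 45617 to 47499 FPKM in AKO_8C, 41068 to 60268 in WT_8C, 23720 to 24759 in AKO_30C and 18512 to 23782 in WT_30C, and none of the 8 was at 0 throughout.

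Cold exposure came with changes in the elongases, and the genotype label with none that passed the test. In the libraries labelled AKO, 4 of the 5 tested elongases passed the test at 8 °C against 30 °C, with Elovl3, Elovl6 and Elovl5 higher and Elovl1 lower. In WT libraries only Elovl3 passed. None of the 5 passed the test of whether the cold difference itself differed between the genotype labels, which called 0.114% of all tested genes. None of the 5 passed between the libraries labelled AKO and the WT libraries at either temperature, by limma, and 1 at 8 °C (Elovl3) and 0 at 30 °C were below 0.05 before adjustment. For comparison, 49.5% of all tested genes were called between the temperatures in the libraries labelled AKO (26.5% higher and 23.1% lower) and 49.0% in WT libraries (24.3% higher and 24.7% lower). The genotype comparison called 2.03% at 8 °C and 0.795% at 30 °C. Groups did not overlap in 4 of the 5 elongases between the temperatures in the libraries labelled AKO (58.6% of all tested genes) and in 2 of 5 in WT libraries (58.0%). All 5 overlapped between the genotype labels at 8 °C and at 30 °C, where 24.1% and 19.1% of all tested genes did not.

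**Figure D1:**
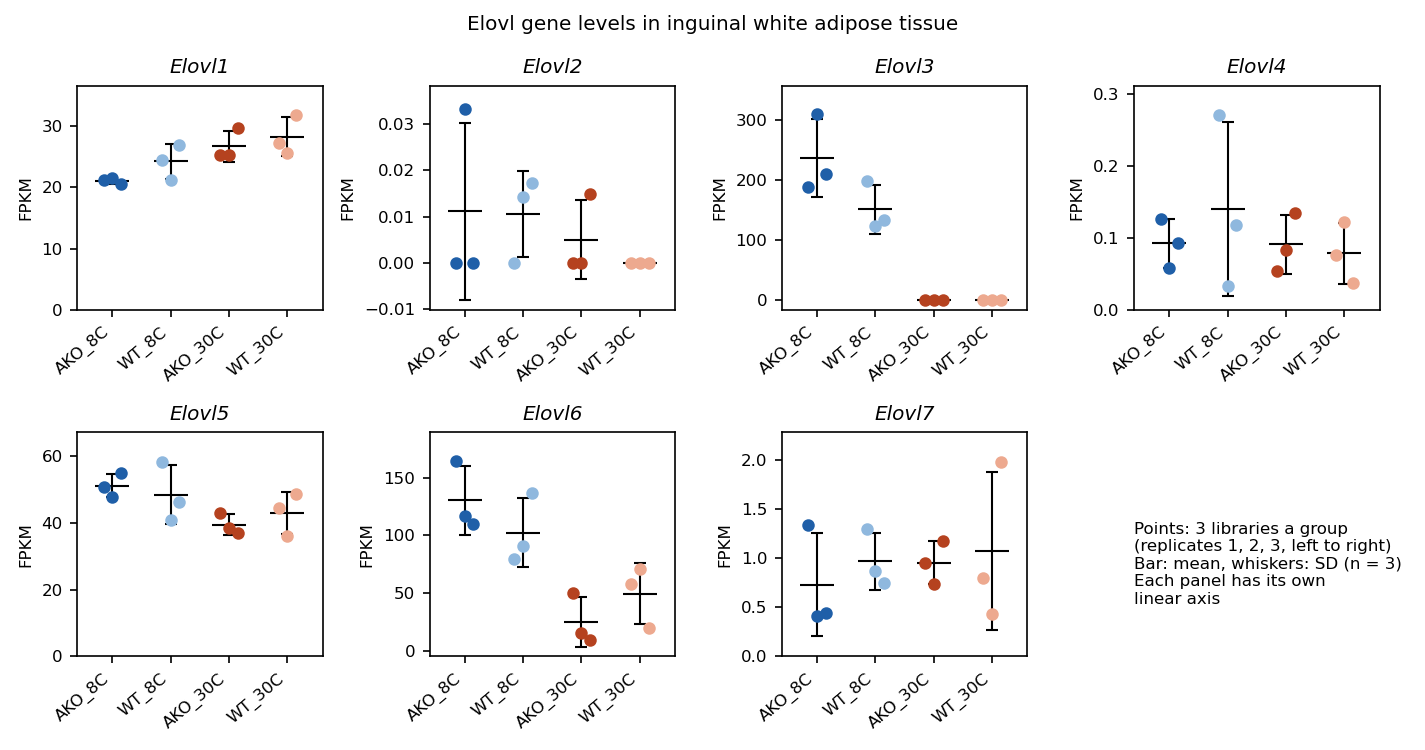
FPKM of Elovl1 to Elovl7 in each of the 12 libraries, 1 panel a gene with its own linear axis; points are libraries, the horizontal bar is the mean and the whiskers the SD (n = 3). Elovl3 lies between 123 and 311 FPKM in the 6 libraries at 8 °C and between 0.0991 and 0.339 FPKM in the 6 at 30 °C, while Elovl1 and Elovl5 keep within 20.6 to 58.4 FPKM throughout.

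Promoters are shown because the members that passed a test in the cold differ in what their start regions hold. RefSeq windows of 250 bases before to 50 after the transcription start (GRCm38.p6) were at hand for 6 of the 7 genes, in 8 windows, and Elovl3 has none. Printed 5′ to 3′ on the strand of the gene are those of Elovl6, Elovl5 and Elovl1, for Elovl1 the first of 2 windows, which lies at the start of the annotated gene. Capitals mark matches, on either strand, to 5 short motifs: the E-box CACGTG, the cAMP response element TGACGTCA, the GC box GGGCGG, the CCAAT box CCAAT and the TATA box TATAAA. The windows are chr3:129532136-129532435 (plus strand) for Elovl6, chr9:77917115-77917414 (plus strand) for Elovl5 and chr4:118427843-118428142 (plus strand) for the first window of Elovl1.
Elovl6: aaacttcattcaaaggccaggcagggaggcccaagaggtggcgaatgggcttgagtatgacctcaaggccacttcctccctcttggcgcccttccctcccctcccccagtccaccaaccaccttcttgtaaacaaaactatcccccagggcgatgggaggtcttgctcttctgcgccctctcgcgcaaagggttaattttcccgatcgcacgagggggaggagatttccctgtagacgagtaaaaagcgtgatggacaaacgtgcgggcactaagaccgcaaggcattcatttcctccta
Elovl5: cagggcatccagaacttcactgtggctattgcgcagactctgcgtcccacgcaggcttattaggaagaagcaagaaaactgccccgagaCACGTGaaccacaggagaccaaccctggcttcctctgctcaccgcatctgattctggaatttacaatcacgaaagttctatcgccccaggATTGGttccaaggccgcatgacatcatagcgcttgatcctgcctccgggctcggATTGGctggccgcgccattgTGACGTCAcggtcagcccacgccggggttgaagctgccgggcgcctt
Elovl1: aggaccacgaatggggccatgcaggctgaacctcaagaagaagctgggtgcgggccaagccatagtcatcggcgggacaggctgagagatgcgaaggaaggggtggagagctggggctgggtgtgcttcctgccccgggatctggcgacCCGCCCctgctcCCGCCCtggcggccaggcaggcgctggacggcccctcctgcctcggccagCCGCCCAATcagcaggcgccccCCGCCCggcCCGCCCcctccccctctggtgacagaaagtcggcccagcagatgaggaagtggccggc
The Elovl6 window held none of the 5 motifs. The Elovl5 window held an E-box starting 161 bases before the start, CCAAT boxes on the other strand (ATTGG) at 71 and 17 bases before it, and a cAMP response element at base 4 from the start. The first Elovl1 window held 5 GC boxes on the other strand (CCGCCC), at 101, 89, 39, 17 and 8 bases before the start, and a CCAAT box at 35 bases before it that overlaps the GC box at 39. The second Elovl1 window, not printed, held 2 GC boxes on the strand of the gene, at 48 and 37 bases before its start, and no other of the 5 motifs. Of 32851 mouse windows of the same length, 7.15% held the E-box, 1.79% the cAMP response element, 35.7% the GC box and 37.4% the CCAAT box. The TATA box, found in 13.6% of them, was in none of the 3 printed. These matches are letters in a window and were not tested as binding sites.

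Elovl3, which makes saturated and monounsaturated very-long-chain fatty acids in brown fat and skin, was the elongase that changed most. Its level was 189, 311 and 211 FPKM in AKO_8C, 199, 123 and 133 FPKM in WT_8C, 0.139, 0.192 and 0.0991 FPKM in AKO_30C, and 0.339, 0.132 and 0.145 FPKM in WT_30C (replicates 1 to 3). All 6 libraries at 8 °C lay far above all 6 at 30 °C. The mean was 237 ± 64.9 FPKM in AKO_8C against 0.143 ± 0.0465 FPKM in AKO_30C, and 152 ± 41.1 FPKM in WT_8C against 0.205 ± 0.116 FPKM in WT_30C (SD, n = 3 each). The ratio of these means was 1651 in the libraries labelled AKO and 741 in WT libraries, both over denominators below 1 FPKM of unknown depth. On the log2(FPKM + 1) scale Elovl3 rose by 7.67 in the libraries labelled AKO (SE 0.20, 95% interval 7.24 to 8.09, limma adjusted p = 5.70e-10) and by 6.96 in WT libraries (interval 6.53 to 7.39, adjusted p = 1.82e-09). In both it ranked 2 of the 13215 tested genes by this difference, after Ucp1, the uncoupling protein of thermogenic fat, with 8.08 and 7.69. The order of these 2 genes depends on the scale, since adding 1 FPKM flattens values as low as those of Elovl3 at 30 °C. By the ratio of mean FPKM Ucp1 changed less than Elovl3, with 194 in the libraries labelled AKO and 216 in WT libraries. Elovl3 also passed the filter only through its libraries at 8 °C. In bulk tissue, more cells that express the gene and more RNA per cell cannot be told apart.

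Elovl3 at 8 °C did not pass the test between the libraries labelled AKO and the WT libraries. The mean was 1.56 times as high in AKO_8C as in WT_8C, but replicate 1 of WT_8C (199 FPKM) lay above replicate 1 of AKO_8C (189 FPKM), so the groups overlapped. That WT_8C library stands apart from the other 2 of its group in adipocyte markers (60268 against 41068 and 41523 FPKM) and in mammary epithelial markers (114.7 FPKM, against at most 9.22 in any other library), whose part in its Elovl3 value was not tested. The log2 difference was 0.64 (SE 0.20, interval 0.21 to 1.06), below 0.05 before adjustment, with a limma adjusted p of 0.105. It ran between 0.42 without replicate 2 of AKO_8C, the highest library, and 0.85 without replicate 1 of WT_8C, with adjusted p from 0.0638 to 0.281. The authors' deposited table for 8 °C holds Elovl3 as significant with the same group values, 237 FPKM in AKO and 152 FPKM in WT, a log2 fold change of 0.64 and a q-value of 0.000301, computed by their own test. At 30 °C the difference was -0.07 (interval -0.50 to 0.35, adjusted p = 0.896) between groups that were both below 1 FPKM. The interaction, which subtracts the genotype difference at 30 °C from the one at 8 °C, was 0.71 (interval 0.11 to 1.31, limma adjusted p = 0.274). It was below 0.05 before adjustment for Elovl3 alone among the 5 elongases, none of the 5 passed, and 0.114% of all tested genes passed that test.

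Markers of skin and sebaceous gland, another known site of Elovl3, summed to 42.0 to 52.8 FPKM in AKO_8C, 27.1 to 41.8 in WT_8C, 19.0 to 34.3 in AKO_30C and 8.97 to 9.95 in WT_30C. None of these 8 markers was at 0 throughout, and their part in the Elovl3 difference was not tested. Elovl3 (chr19:46131897-46135694, plus strand, GRCm38) overlaps Pitx3 on the other strand by 10 bases, and strandedness of the libraries is not given in the sources used here. Pitx3 lay between 0 and 1.28 FPKM in all libraries. It was itself called higher in the cold, by 0.56 in the libraries labelled AKO and 0.99 in WT libraries (limma adjusted p = 0.0101 and 0.000314). Whether reads of 1 gene were counted for the other was not tested. The authors' locus for Elovl3, chr19:46131898-46148325, runs beyond the annotated gene.

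Elovl6, the elongase that converts palmitate to stearate, was the other strongly cold-responsive member. Its level was 164, 117 and 109.8 FPKM in AKO_8C against 49.9, 15.8 and 9.75 FPKM in AKO_30C, and 79.6, 91.2 and 137 FPKM in WT_8C against 57.9, 70.6 and 20.3 FPKM in WT_30C. In both genotypes every library at 8 °C lay above every library at 30 °C. In the libraries labelled AKO the means were 130.3 ± 29.7 FPKM at 8 °C and 25.1 ± 21.6 FPKM at 30 °C (SD, n = 3 each), and Elovl6 rose by 2.63 (SE 0.53, interval 1.48 to 3.77, limma adjusted p = 0.00148). In WT libraries the means were 102 ± 30.1 FPKM at 8 °C and 49.6 ± 26.1 FPKM at 30 °C, and the difference of 1.17 (interval 0.02 to 2.32), below 0.05 before adjustment, missed the threshold with an adjusted p of 0.0837. Left without WT_30C replicate 3, the lowest library of its group, that difference was 0.63, and it was 1.51 without WT_30C replicate 2, the highest, with adjusted p of 0.331 and 0.05002.

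At 30 °C the 3 libraries labelled AKO lay lower in Elovl6 than WT on average, but the groups overlapped, since AKO_30C replicate 1 stood at 49.9 FPKM and WT_30C replicate 3 at 20.3 FPKM. The difference was -1.10 (SE 0.53, interval -2.24 to 0.05, limma adjusted p = 0.366), which ranked 159 of 13215 by size. It was -1.74 without AKO_30C replicate 1 and -0.61 without AKO_30C replicate 3, with adjusted p of 0.132 and 0.737. In the authors' deposited table for 30 °C Elovl6 is significant, with 25.1 FPKM in AKO and 49.6 FPKM in WT, a log2 fold change of -0.98 and a q-value of 0.000301. At 8 °C the difference was 0.36 (interval -0.79 to 1.51, adjusted p = 0.761; 0.18 to 0.58 with a library left out), and the interaction was 1.46 (interval -0.17 to 3.08, adjusted p = 0.386). Elovl6 (chr3:129532355-129638495, plus strand) overlaps 2 annotated features that have no row in the expression table, Gm35986 by 34 bases on the other strand and Gm43072 by 1671 bases on the same strand.

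Most of the genes that supply the substrates of Elovl6 were lowest in the same libraries at 30 °C as Elovl6 itself. The list of malonyl-CoA and palmitate supply holds 10 genes, all tested. Elovl6 was lowest in AKO_30C replicate 3, AKO_30C replicate 2 and WT_30C replicate 3, and the same 3 libraries were the lowest in 8 of the 10 supply genes, Mid1ip1 and Mlycd being the exceptions. Among all tested genes 7.37% had these 3 lowest libraries. The highest 30 °C library, WT_30C replicate 2, held 7.23 times the Elovl6 of the lowest. The ratio of the highest to the lowest library was smaller in every supply gene. It was 6.55 for Acly, which makes cytosolic acetyl-CoA, 4.71 for Me1, the malic enzyme that makes NADPH, and 4.70 for Fasn, the synthase of palmitate, and between 4.02 and 1.37 for the other 7, with Acacb at 2.17, Thrsp at 1.85, Mid1ip1 at 1.42 and Mlycd at 1.37. AKO_30C replicate 3, the lowest library in Elovl6, was also the highest of the 6 at 30 °C in macrophage markers (704 FPKM) and in fibroblast and progenitor markers (1170 FPKM). WT_30C replicate 3 was not high in these (218 and 251 FPKM) and had the lowest adipocyte sum of the 6 (18512 FPKM). Skeletal muscle markers were highest in the same 3 libraries. They summed to 4431 FPKM in WT_30C replicate 3, 3704 in AKO_30C replicate 3 and 2448 in AKO_30C replicate 2, close to the 2414 of WT_30C replicate 2. What these libraries share was not tested.

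**Figure D2:**
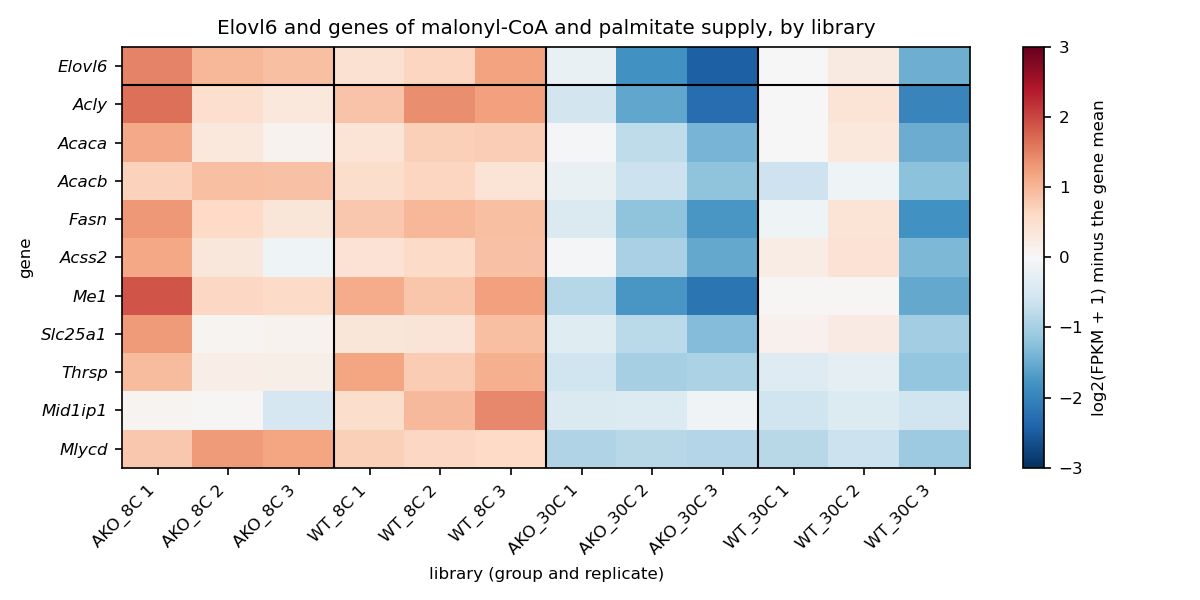
Each row is a gene and each column a library (group and replicate); colour gives log2(FPKM + 1) minus the gene's mean over the 12 libraries, red above and blue below it. In the top row Elovl6 is lowest in AKO_30C replicates 2 and 3 and in WT_30C replicate 3, as are 8 of the 10 supply genes under it.

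Most of the supply genes also rose in the cold. In the libraries labelled AKO 9 of 10 rose and none fell, where 26.5% of all tested genes were called higher. Their median difference was 1.41, against 0.00 over all tested genes. In WT libraries 7 of 10 rose and none fell, where 24.3% of all tested genes were called higher, with a median of 1.46 against -0.01. Me1 rose by 2.61 in the libraries labelled AKO and 1.55 in WT libraries (limma adjusted p = 0.000632 and 0.0154), Acly by 2.29 and 1.69 (0.00614 and 0.0297) and Fasn by 1.88 and 1.42 (0.00639 and 0.0282). Mlycd, the malonyl-CoA decarboxylase that removes the elongation substrate, rose in both as well, by 1.97 in the libraries labelled AKO (4.11e-07 and 7.18e-06). At 8 °C, 1 of the 10 differed between the libraries labelled AKO and the WT libraries, where 2.03% of all tested genes did. It was Mid1ip1, a regulator of acetyl-CoA carboxylase, which fell by 1.10 (limma adjusted p = 0.0306). None of the 10 passed at 30 °C, where 0.795% of all tested genes did. There Me1 was the single supply gene below 0.05 before adjustment, with -1.11 (limma adjusted p = 0.301).

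Elovl5, which lengthens polyunsaturated fatty acids, was high in every library and changed little. Its level was 50.9, 47.8 and 54.9 FPKM in AKO_8C against 43.1, 38.4 and 36.9 FPKM in AKO_30C, and 58.4, 40.9 and 46.2 FPKM in WT_8C against 44.5, 36.1 and 48.6 FPKM in WT_30C. The groups did not overlap in the libraries labelled AKO and overlapped in WT libraries. In the libraries labelled AKO Elovl5 rose by 0.37 (SE 0.14, interval 0.06 to 0.67, limma adjusted p = 0.0442). The call was lost in 5 of the 6 fits that left out a library of these groups (adjusted p up to 0.130) and with 2 other scalings of the libraries. In WT libraries the difference was 0.16 (interval -0.14 to 0.47, adjusted p = 0.347), and it ran from 0.024 to 0.28 with a library left out. Between the libraries labelled AKO and the WT libraries it was 0.09 at 8 °C (interval -0.21 to 0.39, adjusted p = 0.772) and -0.11 at 30 °C (interval -0.42 to 0.19, adjusted p = 0.740). The interaction was 0.20 (interval -0.22 to 0.63, limma adjusted p = 0.653).

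Elovl1, which makes saturated and monounsaturated very-long-chain acids for sphingolipids in most tissues, was the one elongase called lower in the cold, in the libraries labelled AKO. It stood at 21.2, 21.5 and 20.6 FPKM in AKO_8C against 25.3, 25.2 and 29.7 FPKM in AKO_30C, and at 24.6, 21.3 and 27.0 FPKM in WT_8C against 27.3, 25.7 and 31.8 FPKM in WT_30C. All 3 AKO_8C libraries lay below all 3 AKO_30C libraries, and the WT groups overlapped. Elovl1 fell by 0.33 in the libraries labelled AKO (SE 0.11, interval -0.57 to -0.08, limma adjusted p = 0.0290), a call lost in 4 of the 6 fits that left out a library (adjusted p up to 0.115). In WT libraries the difference was -0.21 (interval -0.46 to 0.03, adjusted p = 0.134). It was -0.19 between the libraries labelled AKO and the WT libraries at 8 °C (interval -0.43 to 0.06, adjusted p = 0.386) and -0.07 at 30 °C (interval -0.32 to 0.17, adjusted p = 0.799). The interaction was -0.11 (interval -0.46 to 0.23, limma adjusted p = 0.765). Elovl1 overlaps Cdc20, at 3.83 to 10.5 FPKM, by 53 bases on the other strand.

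Elovl7, an elongase of saturated long-chain acids, lay around the filter, between 0.408 and 1.99 FPKM, and reached 1 FPKM in 4 libraries spread over all 4 groups. The 3 libraries held 1.34, 0.408 and 0.444 FPKM in AKO_8C, 1.30, 0.869 and 0.745 FPKM in WT_8C, 0.948, 0.735 and 1.17 FPKM in AKO_30C, and 0.800, 0.435 and 1.99 FPKM in WT_30C. Every pair of groups overlapped. The difference was -0.21 at 8 °C against 30 °C in the libraries labelled AKO (interval -0.79 to 0.37, limma adjusted p = 0.533) and -0.01 in WT libraries (interval -0.59 to 0.56, adjusted p = 0.972). Between the libraries labelled AKO and the WT libraries it was -0.22 at 8 °C and -0.02 at 30 °C (adjusted p = 0.700 and 0.980), with a sign at 30 °C that turns under another pseudocount. Elovl7 overlaps the pseudogenes Gm30747 and Gm32376 by 467 and 374 bases on the other strand, and neither has a row in the table.

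Elovl2 and Elovl4 were barely detected. Elovl2, which lengthens polyunsaturated acids in liver and testis, was listed at 0 in 8 of 12 libraries and reached at most 0.0333 FPKM, in AKO_8C replicate 2. Elovl4 was above 0 in every library, at 0.0577 to 0.126 FPKM in AKO_8C, 0.0322 to 0.270 FPKM in WT_8C, 0.0540 to 0.135 FPKM in AKO_30C and 0.0377 to 0.121 FPKM in WT_30C. Its highest value came from WT_8C replicate 1, the library in which the 10 mammary epithelial markers summed to 114.7 FPKM, against 3.19 to 9.22 FPKM in the other 11. The part of these markers in the Elovl4 value was not tested. Tested without the filter, neither gene passed in any comparison, with 0.426 the lowest adjusted p by limma.

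**Figure D3:**
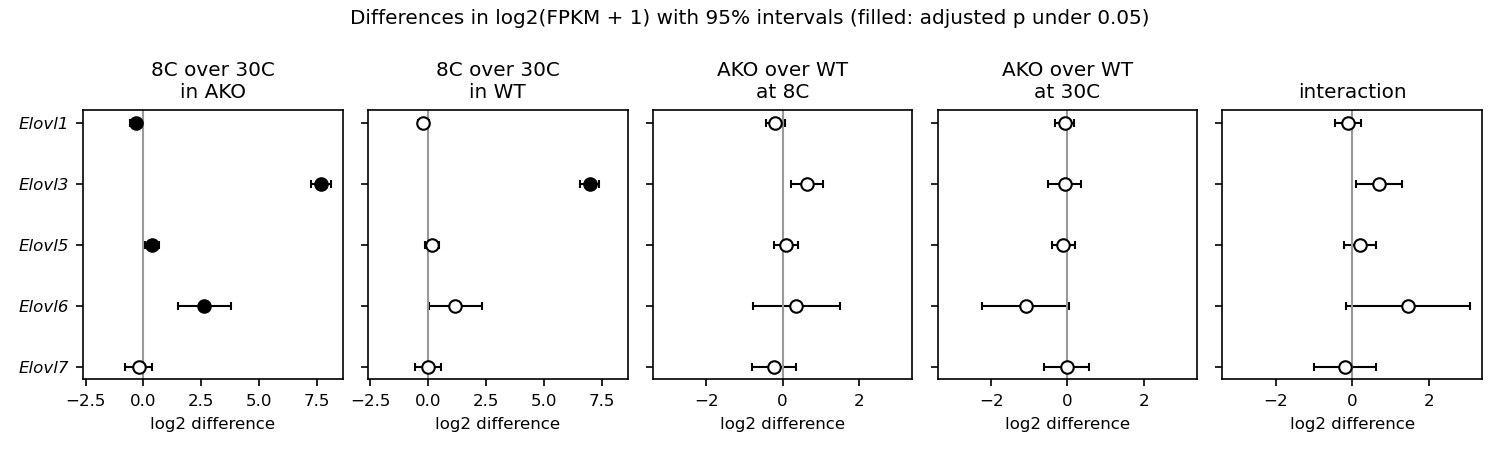
Log2 differences of the 5 tested elongases with their 95% intervals, 1 panel for each comparison; filled points have an adjusted p under 0.05. Elovl3 stands at 7.67 and 6.96 in the cold comparisons and Elovl6 at 2.63 and 1.17, and every point between the genotype labels is open.

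The cold reordered the family. In AKO_8C the order by mean FPKM was Elovl3, Elovl6, Elovl5, Elovl1, Elovl7, Elovl4 and Elovl2, and no neighbours in this order overlapped. The order in WT_8C was the same, with Elovl3 and Elovl6 overlapping. In AKO_30C Elovl5 led, followed by Elovl1 and Elovl6, whose libraries overlapped, and Elovl3 came after Elovl7, overlapping Elovl4. In WT_30C Elovl6 led and overlapped Elovl5, followed by Elovl1, Elovl7, Elovl3, Elovl4 and Elovl2. The summed FPKM of the 7 genes was 440.3 ± 51.6 in AKO_8C, 328 ± 44.7 in WT_8C, 92.6 ± 23.3 in AKO_30C and 122 ± 16.8 in WT_30C (SD, n = 3 each), and the lowest library at 8 °C (278) held more than the highest at 30 °C (133).

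The make-up of this pool differed between the temperatures. Elovl3 made up 53.3% ± 9.12 of it in AKO_8C and 46.0% ± 8.14 in WT_8C, against 0.161% ± 0.0675 in AKO_30C and 0.166% ± 0.0828 in WT_30C. Elovl5 held 11.8% ± 2.11 in AKO_8C and 14.7% ± 1.33 in WT_8C, against 43.8% ± 6.64 in AKO_30C and 36.1% ± 10.2 in WT_30C. Elovl1 held 4.82% ± 0.448 in AKO_8C and 7.42% ± 0.581 in WT_8C, against 30.3% ± 8.54 in AKO_30C and 23.7% ± 6.32 in WT_30C. Elovl6 kept a share that overlapped between all groups, at 29.9% ± 7.77 in AKO_8C, 31.5% ± 8.97 in WT_8C, 24.6% ± 15.2 in AKO_30C and 39.0% ± 17.3 in WT_30C (SD, n = 3 each). The shares are of transcripts per length and were not tested, and a share of enzyme cannot be read from them.

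**Figure D4:**
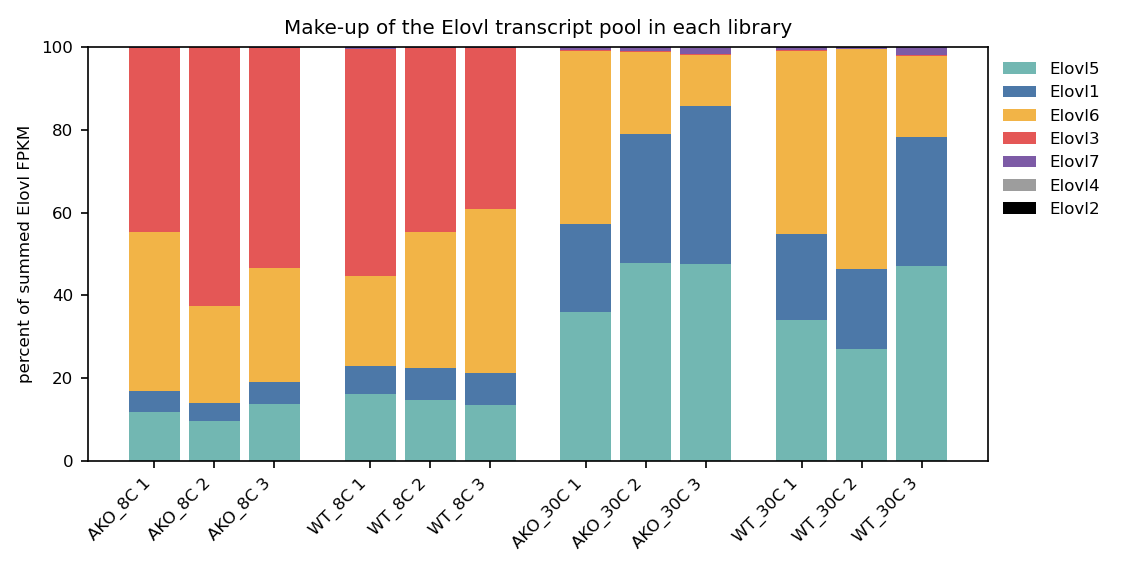
Stacked bars give each elongase as a percent of the summed FPKM of Elovl1 to Elovl7 in each of the 12 libraries, grouped by condition. Elovl3 fills 38.8% to 62.5% of the bars at 8 °C and at most 0.259% of those at 30 °C, where Elovl1, Elovl5 and Elovl6 make up the bars.

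Genes whose pattern lay nearest to each changed elongase were taken by the root mean square difference in log2(FPKM + 1), each gene centred on its mean, over the 12 libraries, among 8984 genes that averaged 5 FPKM or more. Nearest to Elovl3, whose own spread about its mean was 3.67, were Ucp1 (0.768), the fatty acid binding protein gene Fabp3 (1.31) and the cytochrome P450 gene Cyp2b10 (1.33). Ucp1 averaged 3148 ± 602 FPKM in AKO_8C and 2001 ± 13.8 FPKM in WT_8C, and 16.2 ± 19.0 FPKM in AKO_30C and 9.28 ± 3.89 FPKM in WT_30C (SD, n = 3 each). Nearest to Elovl6, with a spread of 1.22, were Me1 (0.347), Acly (0.393) and Fasn (0.399), all in the supply list. Elovl1 (spread 0.187) lay nearest to Zfp12 (0.0468), Dcaf7 (0.0712) and Stra13 (0.0723), and Elovl5 (spread 0.206) to Arfip1 (0.0593), Fam98a (0.0631) and Thoc3 (0.0685).

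Most of the tested enzymes that complete the elongation cycle rose with the cold. Of 7 partner genes 5 were tested, and 4 of them rose in the libraries labelled AKO and 4 in WT libraries, with none lower. Of all tested genes 26.5% and 24.3% were called higher there. The medians of the partners were 1.03 and 0.97, against 0.00 and -0.01 over all tested genes. Hsd17b12, the ketoacyl reductase, averaged 391 ± 17.6 FPKM in AKO_8C and 284 ± 36.0 FPKM in WT_8C, and 70.6 ± 12.2 FPKM in AKO_30C and 75.4 ± 15.5 FPKM in WT_30C, and rose by 2.47 in the libraries labelled AKO and 1.91 in WT libraries (limma adjusted p = 3.74e-07 and 5.82e-06). All 3 AKO_8C libraries of Hsd17b12 lay above all 3 WT_8C libraries, with a difference of 0.47 (limma adjusted p = 0.140). Among the dehydratases Hacd2 rose by 1.99 and 1.92 (5.87e-05 and 0.000108) and Hacd1 by 1.03 and 0.97 (0.000151 and 0.000291), while Hacd3 differed by -0.12 and -0.04 (0.412 and 0.808). Tecr, the enoyl reductase, rose by 0.69 and 0.55 (0.00318 and 0.0116). Hacd4 and Tecrl did not reach 1 FPKM in 3 libraries.

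Among genes that use, make or oxidise the elongases' acids, counts are to be read against the 26.5% of all tested genes that were called higher and 23.1% called lower in the libraries labelled AKO, and the 24.3% and 24.7% in WT libraries. Of 8 tested desaturases 3 rose and 1 fell in the libraries labelled AKO, a share called close to that over all genes, and 2 rose and 1 fell in WT libraries, with medians of 0.38 and 0.49 against 0.00 and -0.01 over all tested genes. Between the genotype labels at 8 °C 1 desaturase was called higher and 1 lower, where 2.03% of all tested genes were called. Scd2, a stearoyl-CoA desaturase, was the lower one, by 1.02 in the libraries labelled AKO relative to WT (limma adjusted p = 0.0306). Scd3, a desaturase that prefers palmitoyl-CoA, was the higher one, by 1.01 (limma adjusted p = 0.0306), and is counted among the 3 that rose in the cold. But Scd3 passed the filter only through AKO_8C, at 1.45 to 2.69 FPKM, against 0.204 to 0.919 FPKM in WT_8C. It stood lower still in all 6 libraries at 30 °C. Scd1 was left out of the tests because it is listed at 0 in all 6 libraries at 8 °C and at 1200 to 3826 FPKM at 30 °C. Without read counts it cannot be told whether these values of 0 are measured levels, so no cold change of Scd1 is read from them. Of 7 ceramide synthesis genes 3 rose and 1 fell in the libraries labelled AKO, and 1, Cers2, which uses very-long-chain acids, rose in WT libraries by 0.33 (limma adjusted p = 0.0117), with list medians of 0.12 and 0.10. Peroxisomal oxidation of very-long-chain acids had 8 of 12 genes higher in the libraries labelled AKO and 11 of 12 in WT libraries, with none lower, and of 8 acyl-CoA synthetases 7 rose in the libraries labelled AKO and 6 rose and 1 fell in WT libraries. Between the genotype labels at 8 °C 1 synthetase was called, Acsl4, higher by 0.72 in the libraries labelled AKO (limma adjusted p = 0.0340). No ceramide synthesis or peroxisomal gene was called there.

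Regulators known to act on elongase genes did not all go with Elovl6. Of 13 tested, 8 rose and 2 fell in the libraries labelled AKO and 9 rose and 1 fell in WT libraries, with medians of 0.46 and 0.50 against 0.00 and -0.01 over all tested genes, of which 26.5% and 24.3% were called higher and 23.1% and 24.7% lower. Srebf1, which encodes the sterol-regulated activator of fatty acid synthesis known to drive Elovl6, fell by 0.71 in the libraries labelled AKO (limma adjusted p = 0.00560), where Elovl6 rose, and differed by 0.20 in WT libraries (adjusted p = 0.376). At 8 °C Srebf1 fell by 0.82 in the libraries labelled AKO relative to WT (adjusted p = 0.0376). Nr1h3, the liver X receptor, rose by 0.84 and 1.04 in the cold (0.000280 and 7.8e-05), and Ppara, the fatty acid receptor, by 1.44 and 1.12 (0.00390 and 0.0159). Insig1, of the same list, averaged 118.5 ± 28.2 FPKM in AKO_8C against 29.7 ± 8.82 FPKM in AKO_30C (SD, n = 3 each). In WT it averaged 165.9 ± 4.07 FPKM at 8 °C against 39.5 ± 11.0 FPKM at 30 °C, and the temperatures did not overlap in either genotype. Transcript levels of these genes do not measure their activity.

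Of the 13 genes of the thermogenic programme, among which Elovl3 is often counted but was not listed here, 12 rose in the cold in each genotype and none fell. Of all tested genes 26.5% were called higher in the libraries labelled AKO and 24.3% in WT libraries. At 8 °C 3 of them rose in the libraries labelled AKO relative to WT: Dio2, which makes active thyroid hormone (1.06, limma adjusted p = 0.0333), Ppargc1a, a coactivator of mitochondrial genes (0.94, adjusted p = 0.0380), and Gyk, a glycerol kinase (0.99, adjusted p = 0.0487). Between the genotype labels at 8 °C 2.03% of all tested genes were called. The median of the list there was 0.70, against 0.03 over all tested genes. Elovl3, with its 0.64, did not pass that test.

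**Figure D5:**
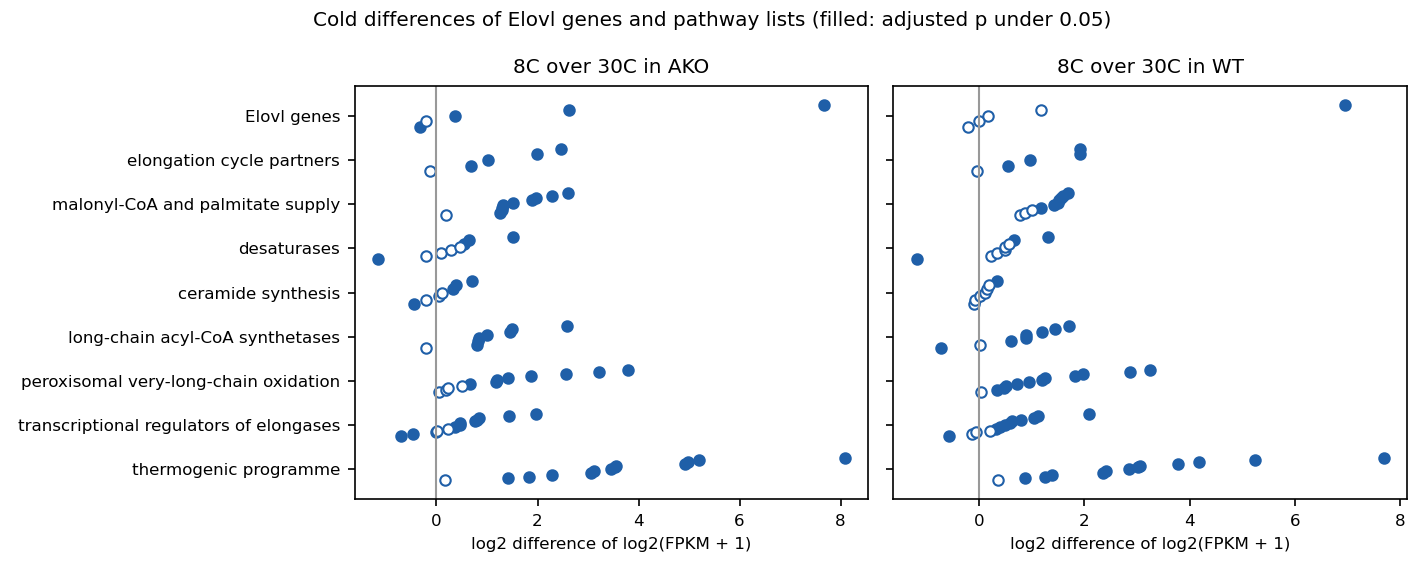
Each point is a tested gene, placed by its log2 difference at 8 °C over 30 °C in the libraries labelled AKO (left) and WT (right), with the elongases in the top row and 8 pathway lists below; filled points have an adjusted p under 0.05. Elovl3 at 7.67 and 6.96 stands outside the range of every list but the thermogenic programme, which holds Ucp1 at 8.08 and 7.69.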

How the data were processed

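Per the submitters' processing notes, the tools were bcl2fastq, FastQC 0.11.3, TopHat2 2.0.14 and Cufflinks 2.2.1 and the build was mm10; options are not given in the sources used here. The authors deposited a gene table that holds FPKM, although its name speaks of counts, since its values are not whole. The 2 deposited comparison tables (AKO over WT) hold group FPKM and the authors' own log2 fold change, p-value, q-value and test score, per the file headers. No read counts are given, so depth is unknown, no counting error can be stated, and no count test was used.

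Genes with at least 1 FPKM in at least 3 libraries were tested, 13215 of 24344. Scd1 and Snora81 were left out, since both combine libraries at 0 with libraries of 1000 FPKM or above. Values were log2(FPKM + 1) with the authors' scaling. limma 3.58.1 (R 4.3.3) fitted 1 mean per group over all 12 libraries with a variance trend, two-sided, with Benjamini-Hochberg adjustment over all genes tested at 0.05. The comparisons were AKO against WT at each temperature, 8 °C against 30 °C in each genotype, and the interaction. The cold comparisons and the genotype comparisons share libraries. On simulated data for the 8 °C comparison with 13215 genes, the test found 37 of 67 genes with a change of 1.5-fold, 60 of 67 at 2-fold and 66 of 66 at 4-fold, with 5 false calls among 13015. The changed genes were drawn only from the better expressed ones, with independent normal noise and no variation shared within a library. These shares therefore do not carry over to genes near 1 FPKM or to genes as variable as Elovl6.

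Members and lists were chosen with earlier results of these data known. Named were all elongases, Ern1, every elongation cycle partner, up to 6 called members of a list in a comparison and up to 3 not called (smallest adjusted p first), and the 3 genes nearest in pattern to each called elongase. Libraries are separate mice, and replicate numbers are not said to pair them. Positions come from GENCODE M21 (GRCm38), promoters from RefSeq (GRCm38.p6). Alternatives were other filters, pseudocounts, scalings and variance settings, only the libraries compared, a replicate block, and each library left out. Figures used Python 3.11.15.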

Additional observations from a re-analysis of the deposited data

How the results depend on the processing

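Elovl3 stayed called in both cold comparisons under every alternative run (log2 differences of 7.46 to 9.91 in the libraries labelled AKO and 6.75 to 8.99 in WT libraries), as did Elovl6 in the libraries labelled AKO (2.14 to 3.27). No elongase was called between the genotype labels or in the interaction under any of them. Called elongases in the libraries labelled AKO ranged from 2 to 4 with a library left out, since Elovl1, Elovl5 or both dropped out. Elovl5 was also lost without the filter (adjusted p = 0.0620), without the variance trend (0.0525), and with upper quartile (0.24, adjusted p = 0.117) or same-sum scaling (0.10, adjusted p = 0.509). Those scalings move the median of all genes by -0.11 and -0.23 there, and relative to it Elovl5 was 0.35 and 0.33. In WT libraries same-sum scaling, with a median of -0.15, called 2 elongases, since Elovl1 passed (-0.36, adjusted p = 0.0116). Uncalled differences changed sign as follows. In AKO against WT at 30 °C with a library left out, Elovl1 ranged from -0.15 to 0.011, Elovl3 from -0.12 to 0.0057 and Elovl7 from -0.25 to 0.28, and Elovl7 was 0.051 with a pseudocount of 0.1 and 0.0085 with same-sum scaling. At 8 °C Elovl5 ranged from -0.021 to 0.23 with a library left out. Elovl7 in the cold in WT ranged from -0.24 to 0.28, and was 0.063 and 0.0072 with pseudocounts of 0.1 and 0.5, and its interaction ranged from -0.49 to 0.035. Over all genes the counts called moved. AKO against WT at 30 °C had 105, and 1 without the filter, 69 without the variance trend, 65 with median ratio scaling and 0 to 29 with a library left out. At 8 °C it had 268, and 172 without the filter, 6 with only the libraries compared, 173 with same-sum scaling (82 higher, 91 lower; 193 and 75 as reported; 148 and 114 with upper quartile scaling) and 23 to 196 with a library left out. The interaction had 15 (8 higher, 7 lower), and 1 without the filter, 4 with a pseudocount of 0.1, 9 with median ratio scaling, 8 with same-sum scaling (3 higher, 5 lower), 3 higher and 7 lower with upper quartile scaling, and 0 to 17 with a library left out. Cold counts in the libraries labelled AKO were 3498 higher and 3050 lower, and 2238 and 5323 with same-sum and 2929 and 4174 with upper quartile scaling. In WT libraries they were 3211 and 3268, and 2401 and 4544 with same-sum scaling. The causes were not tested. With a replicate block 1 gene was called at 30 °C, 419 at 8 °C and 23 in the interaction, and no elongase call changed. Deviations of same-numbered libraries correlated at -0.109 to 0.156. With 3 libraries a group these weak correlations cannot settle whether the numbers pair the mice. With a pseudocount of 0.1 the 3 genes nearest to Elovl1, Elovl5 and Elovl6 were kept, and 2 of 3 nearest to Elovl3. Unknown depth limits the values below 1 FPKM, which are those of Elovl2, Elovl4, most of Elovl7, and Elovl3 at 30 °C.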

Other observations

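Ratios to a gene among the 3 nearest in pattern, chosen after the values were seen, set Elovl3 beside Ucp1 and Elovl6 beside Fasn. Nearness was taken from the same 12 libraries, so ratios that lie close between groups follow in part from that choice. Within a group the genes need not move together. In WT_8C Ucp1 lay between 1986 and 2011 FPKM while Elovl3 ran from 123 to 199 FPKM. Per 100 FPKM of Ucp1, Elovl3 stood at 7.57 ± 1.61 FPKM in AKO_8C and 7.60 ± 2.11 FPKM in WT_8C, with the groups overlapping. At 30 °C the ratio was 1.91 ± 1.37 FPKM in AKO_30C and 2.30 ± 0.883 FPKM in WT_30C (SD, n = 3 each), and the groups of both genotypes at 8 °C lay above those at 30 °C without overlap. Per 100 FPKM of Fasn, Elovl6 stood at 7.31 ± 0.892 FPKM in AKO_8C, 5.21 ± 1.48 FPKM in WT_8C, 4.37 ± 1.83 FPKM in AKO_30C and 5.98 ± 0.888 FPKM in WT_30C, and the 4 groups overlapped in part. None of these ratios was tested.

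Markers of other cell types also differed between the groups. The 6 skeletal muscle markers summed to 198 to 570 FPKM in AKO_8C, 419 to 935 FPKM in WT_8C, 1919 to 3704 FPKM in AKO_30C and 1778 to 4431 FPKM in WT_30C, lower in every library at 8 °C than in any at 30 °C. The 4 B cell markers summed to 199 to 482 FPKM in AKO_8C, 353 to 516 FPKM in WT_8C, 609 to 818 FPKM in AKO_30C and 730.1 to 1019 FPKM in WT_30C. The 7 macrophage markers summed to 413 to 704 FPKM in AKO_30C and 205 to 225 FPKM in WT_30C, and the 6 fibroblast and progenitor markers to 635 to 1170 FPKM in AKO_30C and 251 to 310 FPKM in WT_30C, both without overlap. The part of any of these in the elongase levels was not tested.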
